A study of Mus musculus with 18 samples.

Results

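The contacts described here join the far 5′ gene desert of *HoxD* to the 3′ flank of the cluster, and they include the longest contacts that a 5C design of the mouse limb region could record. Members were chosen by position alone, as pairs of 1 forward and 1 reverse primer with one fragment midpoint in the desert and the other in the 3′ flank. Of the 10300 such pairs in the limb design, 2452 met this rule. They joined 71 EcoRI fragments of the desert (chr2:73751054-74232805, mm9) to 69 fragments of the 3′ flank (chr2:74604633-74907778), with midpoints 374 to 1154 kb apart. Genes annotated in the desert window were *Gm13668*, *A630050E04Rik*, *Gm13667* and *4930441J16Rik*, none of them protein coding. In the 3′ flank the protein-coding gene was *Mtx2* (chr2:74663860-74716488), which encodes a protein of the mitochondrial outer membrane.

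Libraries were made from 2 mouse mesenchymal cell lines derived from the distal forelimb buds of E10.5 Immortomouse embryos, A2 from the anterior and P2 from the posterior, with 2 libraries each. Both lines carry the temperature-sensitive, interferon-inducible immortalizing transgene of the Immortomouse and both were grown at 33°C with γ-Interferon at 20 ng/ml, with no further treatment. Each line stands for 1 side of the bud, so line and side cannot be told apart. The labels do not say whether the libraries of a line came from separate cultures, and p-values may therefore measure technical spread only. Since the files hold no expression, the labelled cell type could not be checked.

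*Hoxd* genes sit between a pair of large gene-poor regions. In the distal limb bud, enhancers scattered over the 5′ desert act on the 5′ *Hoxd* genes, chiefly *Hoxd13*, whereas the 3′ side is known for enhancers that act in the early and proximal limb. The cluster lies at the boundary between the domains in which these regions fold, and a contact between the far desert and the 3′ flank has to cross it. 5C counts such contacts after fixed chromatin is cut and religated, since a forward and a reverse primer are joined only when their fragments were ligated to each other.

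The ends of 9 fragments are shown because they carried the strongest and the weakest contacts across the boundary. Each line gives the mm9 plus strand up to the EcoRI site at the 3′ end of the fragment, with the site in capitals. hoxd_36, hoxd_91 and hoxd_13 are in the desert, and the 4 mHoxD fragments after them are the 3′ flank partners of the 5 strongest contacts. hoxd_124 and mHoxD_106 had the lowest mean contacts of the desert and of the flank.
hoxd_36 (chr2:73913229-73913261): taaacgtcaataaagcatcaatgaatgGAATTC
hoxd_91 (chr2:74152767-74152799): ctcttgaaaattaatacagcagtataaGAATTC
hoxd_13 (chr2:73790604-73790636): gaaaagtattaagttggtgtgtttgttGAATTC
mHoxD_147 (chr2:74791178-74791210): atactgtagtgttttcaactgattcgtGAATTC
mHoxD_175 (chr2:74876056-74876088): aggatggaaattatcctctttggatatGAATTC
mHoxD_161 (chr2:74843519-74843551): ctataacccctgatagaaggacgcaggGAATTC
mHoxD_111 (chr2:74650778-74650810): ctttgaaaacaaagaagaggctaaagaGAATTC
hoxd_124 (chr2:74219933-74219965): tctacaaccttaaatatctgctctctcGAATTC
mHoxD_106 (chr2:74625430-74625462): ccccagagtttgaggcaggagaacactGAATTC

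Interaction frequencies are given in reads per 1000 reads of the run, the unit of the deposited matrices. Totals were 1081237 and 718996 reads for A2 libraries 1 and 2, and 478818 and 2096681 reads for P2 libraries 1 and 2. A floor of 3 reads corresponded to frequencies between 0.00143 and 0.00627. Library 2 of each line stood apart from library 1 in detection. Over all 10068 pairs at least 10 kb apart, 23.4% (A2) and 13.8% (P2) of pairs held no read in library 2, against 4.20% and 1.97% in library 1, and this order did not follow depth. Intervals and floors given here cover counting error only, and PCR makes many copies of 1 ligation product.

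The far desert contacted the 3′ flank at a low frequency in both lines. Mean frequencies of the 2452 pairs were 0.0332 and 0.0283 in the A2 libraries and 0.0297 and 0.0241 in the P2 libraries, with empty pairs counted as 0. On this scale, the deposited one, the lines overlapped, since P2 library 1 lay above A2 library 2. The line means were 0.0307 ± 0.00345 (SD, n = 2) in A2 and 0.0269 ± 0.00392 in P2. P2 was lower by 0.11 on the log2 scale (after adding 0.02), beside an SD of 0.10 in A2 and 0.12 in P2. The exact permutation test (two-sided) gave p = 0.667, and 2 against 2 libraries cannot go below 0.333. With each library scaled to the same sum the lines did not overlap, at -4.29 and -4.29 (A2) against -4.41 and -4.44 (P2) for log2 of the mean plus 0.02, and p was 0.333. P2 was then lower by 0.14, beside an SD of 0.004 in A2 and 0.023 in P2. Within library 1 the frequency in P2 was 0.894 of that in A2, and within library 2 it was 0.852. Library number marks no known pairing, so these are not matched comparisons.

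These contacts held 7.54% ± 0.847 of the reads in A2 and 6.59% ± 0.962 in P2 (SD, n = 2). The shares were 8.14% (exact 95% binomial interval 8.08 to 8.19) and 6.94% (6.879 to 6.997) in the A2 libraries, and 7.27% (7.20 to 7.35) and 5.91% (5.88 to 5.94) in the P2 libraries. The gap between the libraries of a line was wider than these intervals. A single pair typically rested on few reads, with medians of 29, 12, 11 and 37 reads in A2 libraries 1 and 2 and P2 libraries 1 and 2.

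To ask what crossing the boundary was associated with, the members were set against pairs of equal distance that stay on the 5′ side, with both fragments in the desert or in the 5′ flank up to *Evx2*. This comparison covers 350 to 750 kb, because the longest 5′-side pair spans 738 kb. The longest pair inside the 3′ flank spans 302 kb, shorter than any member, so the 3′ side offers no comparator. Pairs were averaged in classes of 50 kb, and each ratio was taken within a library, where its scaling cancels. No desert fragment is equally far from both flanks, so desert with 5′ flank pairs and members of a class use different desert fragments. Pairs inside the desert can share fragments with the members.

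Far desert contacts across the boundary were rarer than within-side contacts of the same length, 2.93-fold in A2 and 3.48-fold in P2. Averaged over the 8 classes on the log2 scale, their frequency was 36.6% and 31.8% of the within-side frequency in the A2 libraries and 28.6% and 28.9% in the P2 libraries. The mean log2 ratio was -1.55 ± 0.14 (SD, n = 2) in A2 and -1.80 ± 0.01 in P2. All 4 libraries lay below 0, for which the exact sign-change test gives 0.125, the smallest p that 4 libraries allow. The 4 ratios did not overlap between lines, and P2 was lower by 0.25 (exact permutation p = 0.333, the smallest that 2 against 2 can give).

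Each of the 8 classes was below 0 in both lines with limma. Class estimates ran from -1.79 to -1.24 in A2, or 28.9% to 42.3% of the within-side frequency, and from -2.35 to -1.54 in P2, or 19.6% to 34.3%. The largest adjusted p was 2.5e-11 in A2 and 4.6e-14 in P2. These p-values rest on a spread pooled over 19 classes of the same 4 libraries and are far smaller than 4 libraries alone could give. Being below within-side pairs was not particular to the far desert: all 19 cross-boundary classes tested, 11 of them 5′ flank with 3′ flank, were called (percent called 100 in A2 and 100 in P2).

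**Figure D1:**
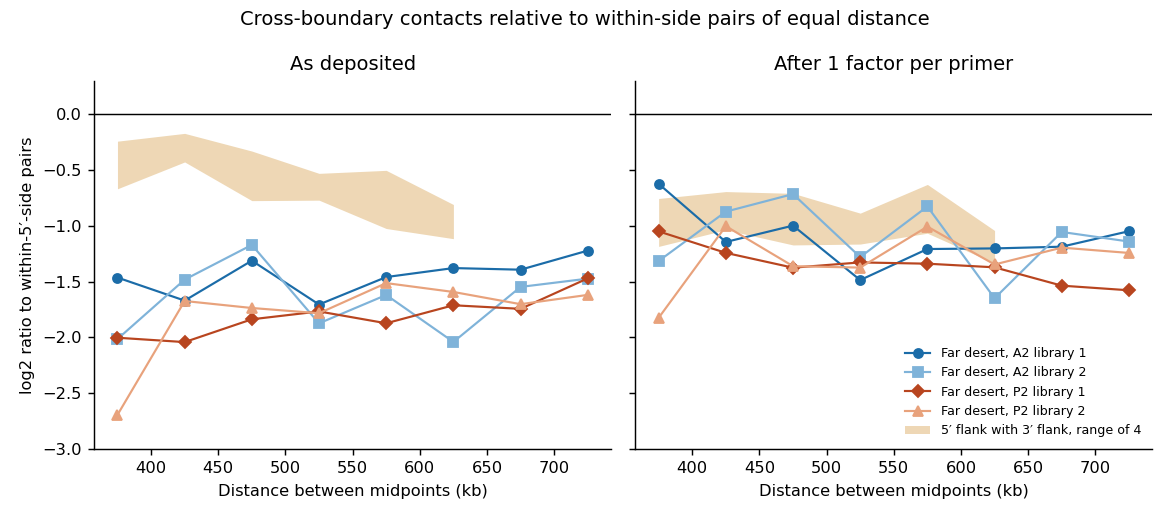
Log2 ratio of cross-boundary to within-5′-side contact frequency (vertical axis) against distance between midpoints in kb (horizontal axis), for far desert with 3′ flank pairs in each library (lines) and the range over 4 libraries for 5′ flank with 3′ flank pairs (band). As deposited (left), every far desert point lies below the band where both exist. After division by 1 factor per primer (right), the lines and the band overlap except at 500 to 550 kb. There all 4 libraries lie below the band.

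The pairs most like the members are those of the 5′ flank with the same 3′ flank, which cross the same boundary from nearer by. At member distances their mean frequencies were 0.0474 and 0.0387 in the A2 libraries and 0.0430 and 0.0319 in the P2 libraries. Far desert pairs had less contact than these pairs in each of the 6 shared classes from 350 to 650 kb. The median of the 6 log2 ratios was -1.05 in A2 and -1.05 in P2, or 48.3% of the frequency of the 5′ flank in each line, and all 6 were called in both (limma, adjusted p at most 0.0032 in A2 and 0.016 in P2). This comparison was added after the values had been seen.

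That difference shrank, and was no longer called, after division by 1 factor per primer. All 6 estimates stayed below 0, from -0.37 to -0.03 in A2 and from -0.40 to -0.04 in P2. When each pair was divided by 1 factor per primer, taken from the primer's mean over pairs at least 100 kb apart, 0 of the 6 classes were called in either line by limma (lowest adjusted p 0.23 in A2 and 0.31 in P2, median log2 ratio -0.29 and -0.23). The deficit against within-side pairs shrank but stayed, to 46.4% of the within-side frequency in A2 and 40.0% in P2, with 8 of 8 classes called in both (percent called 100 in each line). The mean log2 ratio was then -1.11 and -1.11 in the A2 libraries and -1.35 and -1.29 in the P2 libraries. Most long pairs of a 3′ flank primer are themselves cross-boundary pairs, so the factors take up part of whatever lowers such contacts.

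The relative deficit differed between lines in 2 of the 8 classes, both lower in P2 (limma; percent called 10.53, or 2 of all 19 classes). At 450 to 500 kb, the log2 ratios were -1.31 and -1.17 in the A2 libraries against -1.84 and -1.74 in the P2 libraries, which did not overlap. The difference was -0.55 ± 0.18 (SE), with an adjusted p of 0.047. At 350 to 400 kb, with 27 member pairs, the ratios were -1.46 and -2.02 against -2.003 and -2.70, which did overlap. Here the difference was -0.61 ± 0.18 with an adjusted p of 0.036. Both SEs come from a spread pooled over 19 classes, so they are equal and do not measure the spread of 1 class. At 350 to 400 kb the libraries of a line lay farther apart than at 450 to 500 kb. Neither call was kept in all fits that left out 1 library. Without A2 library 1 or without P2 library 2 there was none, and the adjusted p of the 450 to 500 kb class was 0.17 to 0.43 whichever library was left out. Primer factors ended both calls, although the differences stayed about as large (-0.51 at 450 to 500 kb, adjusted p 0.20, and -0.47 at 350 to 400 kb, adjusted p 0.36), and without extreme pairs that at 450 to 500 kb had an adjusted p of 0.16.

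No distance class of the members was called as different in frequency between the lines. All 16 classes had estimates below 0 for P2 against A2, from -0.25 to -0.02 on the log2 scale, and limma called 0 of them (percent called 0 among all 92 classes of the limb design). None had an unadjusted p under 0.05 either, and the lowest adjusted p was 0.97. Their median difference was -0.11, beside 0.01 over all 92 classes.

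The same held in 24-kb windows, the size of the heat map bins. Of the 260 bin pairs made up of members, 0 passed the threshold in limma (percent called 0 among all 1201 bin pairs), and the lowest adjusted p was 0.34. An unadjusted p under 0.05 was found for 12 (4.62%), beside 24 of all 1201 (percent called 2.00). Both P2 libraries lay below both A2 libraries in 67 of them (25.8%; percent called 14.0 among all bin pairs) and above in 12 (4.62%; percent called 10.6 among all). The median log2 difference was -0.08, beside -0.02 over all bin pairs. Leaving out A2 library 1 gave 4 called bin pairs, 2 in each direction, among 13 of all 1201 (percent called 1.08). Leaving out P2 library 1 gave 1 among 3 of all 1201.

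Contact frequency across the boundary did not decay with distance. It was lowest among the shortest contacts and rose towards the longest in every library. From the 350 to 400 kb class to the 1100 to 1150 kb class it went from 0.0216 to 0.0442 in A2 library 1 and from 0.0134 to 0.0381 in A2 library 2. In P2 it went from 0.0161 to 0.0397 in library 1 and from 0.00754 to 0.0342 in library 2. The rise was thus 2.04-fold, 2.84-fold, 2.47-fold and 4.53-fold, and it was not monotonic, with a local dip at 1000 to 1050 kb in all 4 libraries. The 350 to 400 kb and 1100 to 1150 kb classes held only 27 and 38 pairs. The 400 to 450 kb class, of 82 pairs, was at 0.0171 and 0.0176 in the A2 libraries and 0.0151 and 0.0140 in the P2 libraries. A last class beyond 1150 kb held 2 pairs and was not fitted.

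The decay exponent, the slope of log2 class mean on log2 distance, was therefore positive. It was 0.83 and 0.96 in the A2 libraries and 0.92 and 1.17 in the P2 libraries, or 0.89 ± 0.09 and 1.05 ± 0.18 by line (SD, n = 2). The 0.15 between lines lay between these SDs, and the libraries of the lines overlapped (exact permutation p = 0.667). Over single pairs the slope was 0.47 to 0.50 in the 4 libraries. Within-side pairs did not fall over 350 to 750 kb either, where their slope was 0.54 to 0.67, against 0.75 to 1.46 for the members over the same classes.

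**Figure D2:**
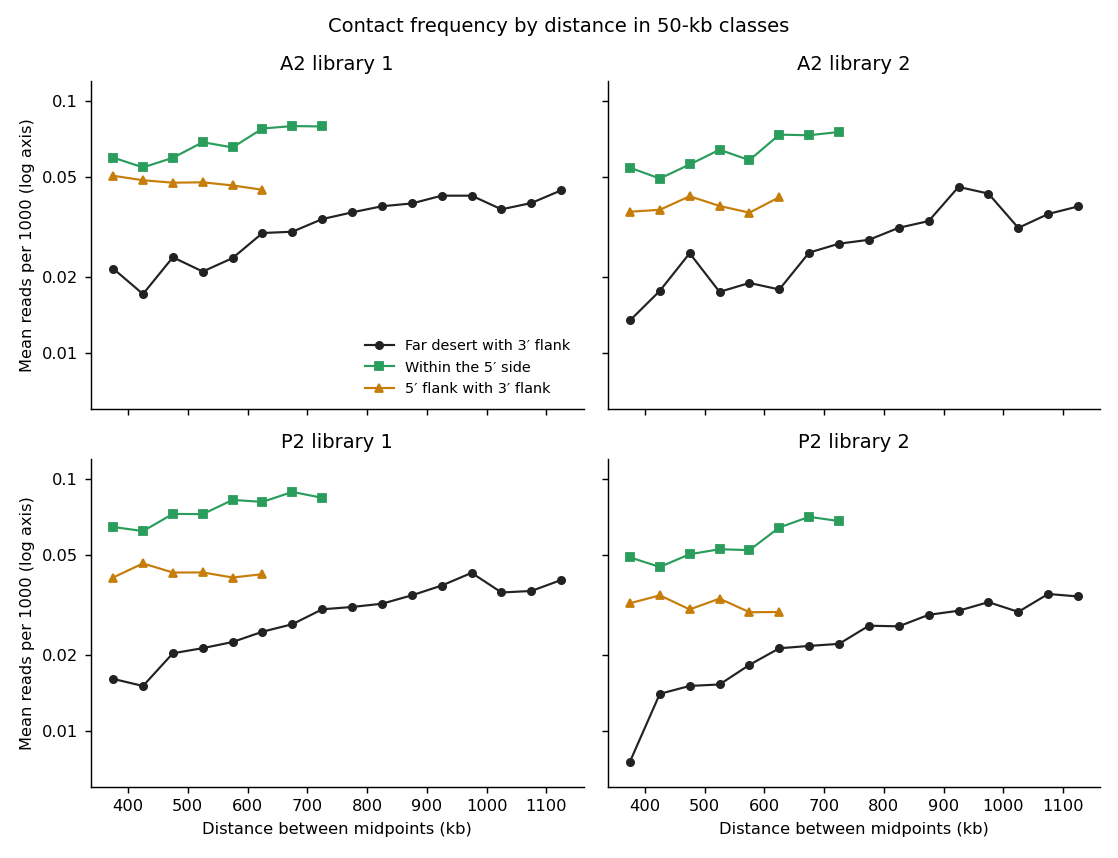
Mean contact frequency in reads per 1000 (log axis) against distance between midpoints in kb, in 50-kb classes of at least 10 pairs, 1 panel per library. Far desert with 3′ flank pairs (circles) rise from between 0.00754 and 0.0216 in the first class to between 0.0342 and 0.0442 in the last fitted one, and stay below within-5′-side pairs (squares) and 5′ flank with 3′ flank pairs (triangles) at each shared distance.

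Much of this slope was lost with the primer factors. After the primer factors it fell to 0.18 and 0.20 in the A2 libraries and 0.18 and 0.36 in the P2 libraries. Over 350 to 750 kb it was then -0.12, -0.09 and -0.19 in A2 libraries 1 and 2 and P2 library 1, and 0.40 in P2 library 2. The direction of the trend at these distances was thus not shared by the libraries once primers were evened out. In none of the fits was there a decay over the whole range. Within-side slopes over 350 to 750 kb fell too, to between 0.07 and 0.26. A factor averages all pairs of a primer at least 100 kb apart, members among them, so it can also take up position.

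Detection followed library order more than line. At least 1 read was found for 90.0% of the members in A2 library 1 (Wilson 95% interval 88.8 to 91.2), 59.3% in A2 library 2 (57.3 to 61.2), 95.5% in P2 library 1 (94.6 to 96.3) and 71.5% in P2 library 2 (69.7 to 73.3). Both libraries 1 lay above both libraries 2. By line this was 74.7% ± 21.8 and 83.5% ± 17.0 (SD, n = 2), an order within the spread (exact permutation p = 0.667). Between libraries of the same number P2 was above A2 both times, as sequenced and at equal depth. The number marks no known pairing, so no difference between lines is read from this. P2 library 2, the most deeply sequenced, missed 698 members, whereas P2 library 1, the shallowest, missed 110.

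Thinning to equal depth changed these shares little. At the depth of P2 library 1, the expected shares were 88.9% and 57.8% for the A2 libraries and 67.9% for P2 library 2. With a minimum of 3 reads the shares were 88.3%, 54.3%, 88.9% and 67.8% in A2 libraries 1 and 2 and P2 libraries 1 and 2. Across all 4 libraries, 1049 members (42.8%) were seen in each and 15 (0.612%) in none.

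Members were missed more often than within-side pairs of the same length. Over the distances shared with within-side pairs, 87.4% and 55.3% of 1186 members held a read in the A2 libraries and 94.0% and 66.5% in the P2 libraries. For the 806 within-side pairs the shares were 96.2%, 78.9%, 98.5% and 87.8%, higher in each library. Of these within-side pairs 69.5% were seen in all 4 libraries, compared with 36.3% of the 1186 members. The members of these lengths had lower means too, 0.0188 to 0.0271 against 0.0515 to 0.0716, and no test was made of detection at equal frequency.

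Detection was also higher among the longest members than among the shortest, mainly in both libraries 2. From the 350 to 400 kb class to the 1100 to 1150 kb class it went from 44.4% to 78.9% in A2 library 2 and from 51.9% to 81.6% in P2 library 2. In the libraries 1 it went only from 85.2% to 86.8% (A2) and from 92.6% to 97.4% (P2). A2 library 1 was lowest in the class of 400 to 450 kb, at 72.0%. At equal depth, P2 library 2 went from 44.8% to 81.6%.

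**Figure D3:**
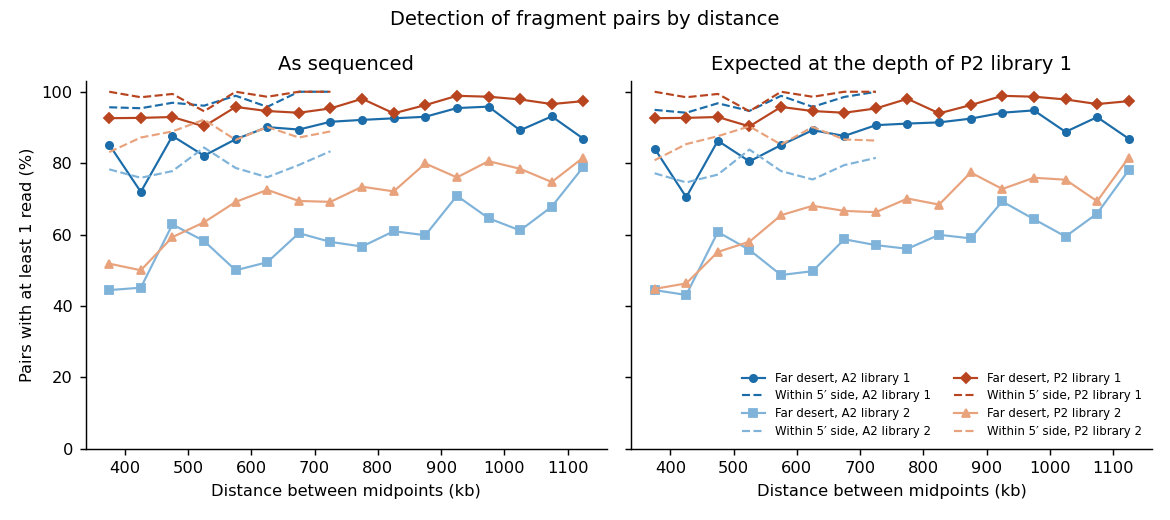
Share of fragment pairs with at least 1 read in percent (vertical axis) against distance between midpoints in kb, as sequenced (left) and expected at the depth of P2 library 1 (right), for far desert with 3′ flank pairs (solid lines) and within-5′-side pairs (dashed lines) of each library. Both libraries 2 lie well below both libraries 1 for the far desert pairs in nearly all classes, and thinning to equal depth moves the curves little.

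Where a pair sat in the 2 regions went with its frequency. Both regions were cut into an inner part next to *HoxD*, a middle and an outer part, each of equal length. The outer desert had mean frequencies of 0.0377 and 0.0385 in the A2 libraries and 0.0360 and 0.0309 in the P2 libraries. For the inner desert, which lies nearest to the 3′ flank, they were 0.0273, 0.0218, 0.0248 and 0.0188. Outer was above middle and middle above inner in all 4 libraries.

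The 3′ flank showed a gradient in the same sense, narrower than that of the desert in 3 libraries and wider in A2 library 1. Its outer part had 0.0378, 0.0303, 0.0336 and 0.0257 in A2 libraries 1 and 2 and P2 libraries 1 and 2, and its inner part 0.0258, 0.0267, 0.0237 and 0.0207. The corner of inner desert with inner flank, 473 kb apart on average, was at 0.0212 and 0.0216 in the A2 libraries and 0.0199 and 0.0164 in the P2 libraries. The opposite corner, outer with outer at 1043 kb, was at 0.0421, 0.0402, 0.0402 and 0.0333.

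With the 5′ flank as partner, the desert had no such order: the outer, middle and inner desert had means over the 4 libraries of 0.0677, 0.0638 and 0.0687, although the inner desert was nearest. After primer factors the outer desert was still above the inner desert with the 3′ flank in all 4 libraries, at 0.0437, 0.0394, 0.0408 and 0.0356 against 0.0370, 0.0320, 0.0348 and 0.0294. The outer and inner parts of the 3′ flank were then at 0.0440 and 0.0383 in A2 library 1 and at 0.0359 and 0.0362 in A2 library 2. In P2 they were at 0.0393 and 0.0362 in library 1 and at 0.0335 and 0.0319 in library 2. The outer flank was thus above the inner in all libraries but A2 library 2, where they were nearly level.

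**Figure D4:**
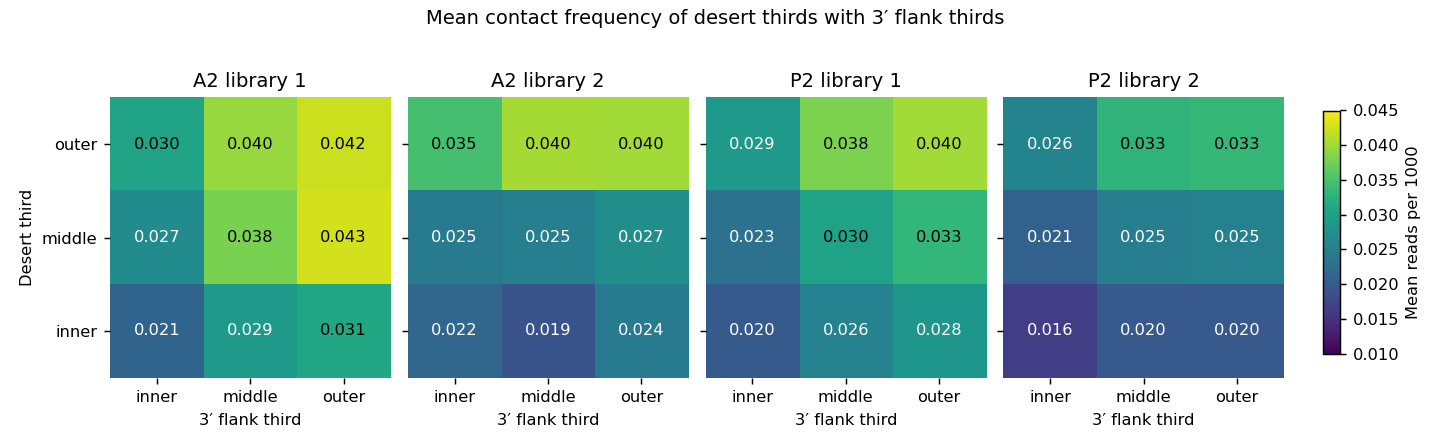
Mean contact frequency in reads per 1000 (colour and printed value) of outer, middle and inner desert (rows) with inner, middle and outer 3′ flank (columns), 1 panel per library. The inner desert with the inner flank is at 0.0164 to 0.0216 and the outer desert with the outer flank at 0.0333 to 0.0421, although the latter pairs are farther apart.

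Named elements were at or below the level of their surroundings. The window of IslIII, a regulatory island of the desert placed by eye from a map of the region (9 fragments, chr2:73995605-74037000), contacted the 3′ flank at 0.0331 and 0.0249 in the A2 libraries and 0.0280 and 0.0241 in the P2 libraries. Other desert fragments were at 0.0332, 0.0288, 0.0299 and 0.0241. The 11 fragments over *Mtx2* contacted the far desert at 0.0273, 0.0255, 0.0233 and 0.0206, below the 0.0343, 0.0288, 0.0309 and 0.0248 of other 3′ flank fragments, and they lay nearer, at 692 kb on average against 766 kb.

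Single fragments differed far more than the lines did. The mean contact of a desert fragment with the 3′ flank, relative to all members, spanned 11.4-fold over the 71 fragments, and that of a 3′ flank fragment with the desert spanned 7.52-fold over 69. In the desert, 20 fragments were above the mean of all members in all 4 libraries and 26 were below it in all 4. In the flank these numbers were 22 and 26.

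The fragment with the most contact was hoxd_36, an intergenic fragment of 25497 bases at 598 kb from the *HoxD* window. Its mean frequencies with the 3′ flank were 0.0784 and 0.0921 in the A2 libraries and 0.0803 and 0.0616 in the P2 libraries, all well above the library means. It was followed by hoxd_91, which overlaps an exon of the noncoding gene *4930441J16Rik*, at 0.0680, 0.0534, 0.0719 and 0.0537, and by hoxd_22 at 0.0615, 0.0509, 0.0647 and 0.0645. In the 3′ flank the highest were mHoxD_161, mHoxD_111 and mHoxD_175, with mean log2 values of 0.90, 0.77 and 0.76 relative to all members. No gene is annotated on these 3 fragments.

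At the other end, hoxd_124, of 514 bases, had 0.0122 and 0.00302 in the A2 libraries and 0.0138 and 0.00407 in the P2 libraries, with both libraries 2 below both libraries 1. The other low fragments of the desert were hoxd_102 (log2 -1.89) and hoxd_98 (-1.75), and those of the flank mHoxD_106 (-2.01), mHoxD_165 (-1.68) and mHoxD_174 (-1.60). hoxd_102 is among the 10 longest desert fragments, with 8383 bases, while mHoxD_174 is the shortest fragment of the flank, with 182.

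The same fragments were high or low with other partners. Across the 71 desert fragments, mean contact with the 3′ flank and mean contact over all other pairs at least 100 kb apart correlated with Spearman rho 0.90, and across the 69 flank fragments rho was 0.92. Longer fragments had more contact, with rho 0.62 in the desert and 0.68 in the flank, whereas rho with GC content was 0.16 and 0.28. These are descriptions over fragments that share libraries and primers, and fragments are not replicates.

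**Figure D5:**
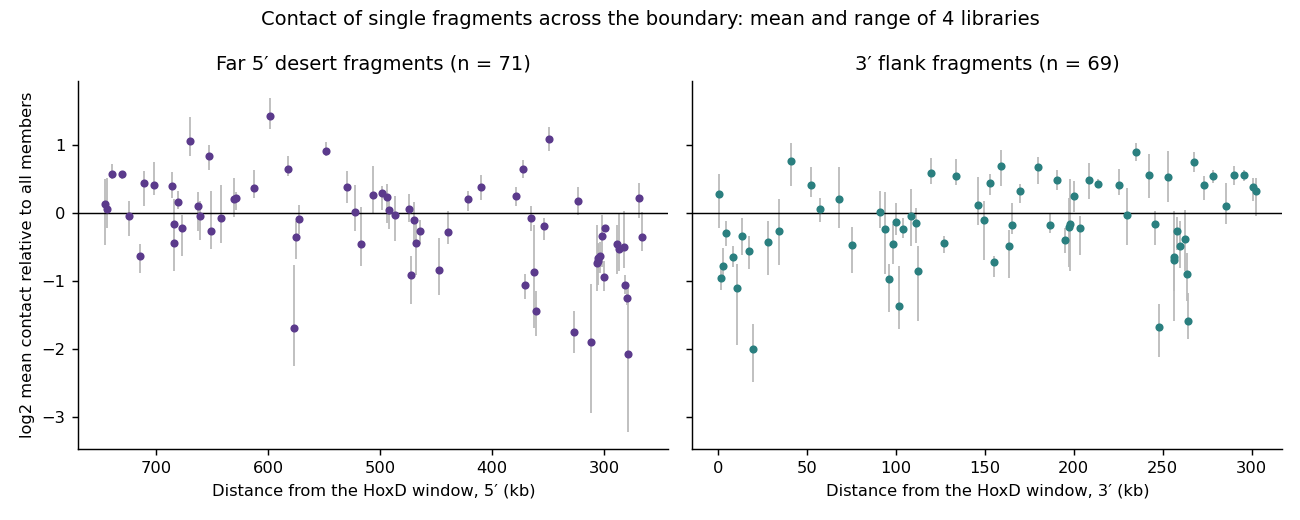
Log2 mean contact of each desert fragment with the 3′ flank (left) and of each 3′ flank fragment with the desert (right), relative to all far desert with 3′ flank pairs of the library, against distance from the *HoxD* window in kb. Points are means and bars the range of 4 libraries. The desert spans from -2.08 to 1.43 and the flank from -2.01 to 0.90.

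Of the 5 single contacts with the highest frequency in their weakest library, 4 used hoxd_36 or hoxd_91. The strongest joined hoxd_36 to mHoxD_147, 884 kb apart, at 0.166 and 0.156 in the A2 libraries and 0.167 and 0.136 in the P2 libraries, on 179, 112, 80 and 286 reads. This was 4.99 to 5.66 times the mean of all members and was much the same in both lines. hoxd_36 with mHoxD_175, at 972 kb, varied more, from 0.0934 and 0.307 in A2 to 0.150 and 0.185 in P2. Both P2 values lay between those of A2.

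The third was hoxd_36 with mHoxD_161 at 939 kb, with 0.130, 0.145, 0.0919 and 0.0997 in A2 libraries 1 and 2 and P2 libraries 1 and 2. hoxd_91 with mHoxD_111, at 497 kb the shortest of the 5, had 0.0916, 0.0890, 0.117 and 0.0963. The fifth joined hoxd_13 to mHoxD_147 over 997 kb and had 0.0980, 0.1001, 0.0877 and 0.0897. In these 3 contacts the lines did not overlap, with A2 above P2 in the first and the last and P2 above A2 in the other. The share of such contacts among all single pairs was not taken. Among all 24-kb bin pairs, both P2 libraries lay below both A2 libraries in 14.0% and above in 10.6%. A bin pair averages the fragment pairs in it, so these shares are no background for single contacts. No difference between the lines is read from the 3 contacts. All 5 were picked for high values, which are given as a description.

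Below this level, libraries ranked the members differently. Over the 2452 pairs, Spearman rho between libraries was 0.28 for A2 library 1 with A2 library 2 and 0.35 for P2 library 1 with P2 library 2. It was highest between the libraries 1 of both lines, at 0.48, and lowest between the libraries 2, at 0.24. In 24-kb bin pairs (n = 260) these values were 0.43, 0.52, 0.67 and 0.45. A2 library 1 and P2 library 1 thus ranked the members more like each other than like the second library of their own line.

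The direction of the primers was also examined. Pairs with a forward primer in the desert (1122) had means of 0.0358, 0.0308, 0.0327 and 0.0252 in A2 libraries 1 and 2 and P2 libraries 1 and 2. Those with a reverse primer there (1330) had 0.0310, 0.0262, 0.0271 and 0.0232. The former were higher in all 4 libraries, by a margin smaller than that between outer and inner desert.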

How the data were processed

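The deposited matrices, 1 per library, hold signal values that the authors made from Ion Torrent reads with a 5C pipeline on Galaxy, scaled as reads per 1000 reads of the run. Which aligner was used is not stated in the sources used here. Per the labels, the build is mm9, and all 203 fragments ended at an EcoRI site in NCBIM37 and 202 started at one. Primer directions were read from the contacts. All values were whole reads to within 1.1e-06 reads, which gave the totals. Replicates were not copies: chi-square over members, divided by its degrees of freedom, was 20.5 (A2) and 13.8 (P2). Libraries are numbered in accession order.

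Members and lists were chosen with earlier results of these data known. Windows were assigned by fragment midpoint. Pairs under 10 kb were left out. Bin pairs (24 kb) and classes (50 kb, at least 10 pairs) were tested as log2(mean + 0.02), and ratios as log2 without a pseudocount, with two-sided limma tests (limma 3.58.1, R 4.3.3) and Benjamini-Hochberg at 0.05 over all features of a comparison. Ratio tests used a pooled SD of 0.18. Single values used exact permutation tests over libraries, and detection at equal depth is the hypergeometric expectation. Fragments and contacts named are those highest or lowest by rule: the 5 members with the highest lowest-of-4 frequency, and 3 fragments at either end of each region. No called bin pairs existed to be named. On simulated data over 1201 bin pairs, 42.6% of 68 pairs changed by 1 on the log2 scale were found. The share was 94.4% of 54 changed by 2 and 100% of 78 changed by 3, beside 10 of 1001 unchanged pairs. The simulation used Poisson counts with independent noise and no added empty pairs, whereas both libraries 2 here missed many pairs. Its rates cover all bin pairs, so the share that would be found among member bin pairs is not known.

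Alternatives covered pseudocount, scaling, level filter, bins, classes, extreme pairs, primer factors, the within-side set, replicate block and leaving out each library. Embryonic stem cell libraries use another primer design and were not used here.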

Additional observations from a re-analysis of the deposited data

Results flagged for a closer look

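Results were flagged where the relative deficit of far desert contacts differed between A2 and P2 by a test of the difference itself. This held for 2 of the 8 distance classes, with the spread pooled over all 19 classes tested. From 350 to 400 kb, the log2 ratio to within-5′-side pairs was lower in P2 by -0.61 (27 member pairs), although A2 library 2 and P2 library 1 were nearly level. From 450 to 500 kb it was lower in P2 by -0.55, in both P2 libraries against both A2 libraries. In that class the members were at 0.0240 and 0.0249 in the A2 libraries and 0.0203 and 0.0151 in the P2 libraries. Within-side pairs were at 0.0595 and 0.0560 in the A2 libraries and 0.0727 and 0.0503 in the P2 libraries. Members were thus lower in both P2 libraries. Within-side pairs were above both A2 libraries in P2 library 1 and below both in P2 library 2. With primer factors the differences were -0.47 and -0.51 and neither was called (limma, adjusted p 0.36 and 0.20), and without extreme pairs the latter class had an adjusted p of 0.16. With 2 libraries a line, outlying libraries could not be tested.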

How the results depend on the processing

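With the within-side set widened to *Hoxd10*, the mean log2 ratio was -1.71 in A2 and -2.05 in P2. With primer factors it was -1.11 and -1.32, and the slope was 0.19 in A2 and 0.27 in P2. Over single pairs, with 0.02 added before log2, the slope was 0.49 and 0.48. The classes lower in P2 than in A2 relative to within-side pairs numbered 2, 1 without extreme pairs and 0 with primer factors (differences -0.47 and -0.51), and 0 to 1 when 1 library was left out. Classes called below the 5′ flank with the 3′ flank fell from 6 to 0 in A2 and from 6 to 0 in P2 with primer factors, and were 5 to 6 in A2 and 5 to 5 in P2 when 1 library was left out. Bin pairs called between lines numbered 0 to 4 when 1 library was left out, and 0 under the other 5 alternatives run. Distance classes called between lines were 0 throughout. All member classes stayed below within-side pairs in each fit, 8 of 8, or 5 of 5 with 100-kb classes.

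When 1 library was left out, the mean log2 ratio was -1.65 to -1.45 in A2 and -1.81 to -1.79 in P2. Its difference between lines was -0.35 to -0.15 and that of the log2 level -0.20 to -0.03. Slopes were 0.83 to 0.96 in A2 and 0.92 to 1.17 in P2, and detection 59.3% to 90.0% and 71.5% to 95.5%. Where a line was left with 1 library, that library was assumed to vary like the other line. With library order as a replicate block, 0 member bin pairs, 0 classes between lines, 8 classes below within-side pairs in each line and 2 lower in P2 were called. The labels give no shared batch or culture for a number, so no pairing was assumed. Deviations of same-numbered libraries correlated at 0.09 over 260 member bin pairs and 0.16 over all 1201. Detection followed the number, whereas the rank correlation of members was highest between the libraries 1 and lowest between the libraries 2. Planned edgeR fits on the recovered reads were not run: whole reads were found over each matrix, but a single column holds too few low values to establish them column by column, and what a count model would call is not known here. The distance step does not enter the mean level. Where calls changed, the cause was not tested.

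With 2 libraries per line, exact tests cannot pass 0.05, and medians of 11 to 37 reads per pair limit what single contacts can show.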
